A study of Homo sapiens with 29 samples.

Results

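A pair of region sets of the human hepatoma line Huh7 was described: 870 of the 6020 peaks of MCRS1 and 642 of the 3322 peaks of RUVBL2 that shared no base with any of the 15303 INO80 peaks of the same line. Together these 1512 INO80-free peaks are a small part of the 151036 peaks in the 9 deposited lists. They were chosen by the absence of an INO80 peak, so their separation from INO80 is a description and not a result. They came from chromatin immunoprecipitation followed by sequencing (ChIP-seq) of formaldehyde-fixed Huh7 cells for which no treatment is named, with 2 libraries for each of MCRS1, RUVBL2, INO80 and YY1. A second liver cancer line, HepG2, was mapped for INO80 (3 libraries), MCRS1, RUVBL1, RUVBL2 and, from ENCODE reads, YY1. Each factor has 1 list of positions per line, with no height, enrichment or value per library, so no difference below has a replicate check or a p-value. Shares carry 95% Wilson intervals and differences of shares Newcombe intervals, which cover counting error only, and neighbouring peaks are not independent. The depth of the libraries is unknown, so an INO80-free peak means that none passed the authors' filter there, not that INO80 was absent.

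INO80 is a remodelling ATPase that slides and spaces nucleosomes, mostly at promoters and enhancers. MCRS1 is a subunit of the INO80 complex and also of the NSL histone acetyltransferase complex. RUVBL2 forms a ring ATPase with RUVBL1 that is shared by the INO80, SRCAP and TIP60 complexes and by the R2TP chaperone. YY1 is a zinc finger transcription factor that binds DNA by sequence and can associate with the INO80 complex. The labels' cell type was looked at through marker genes: 8 of 14 hepatocyte markers (APOA1, APOB, APOH, CEBPA, FOXA2, HNF4A and SERPINA1 among them) had a Huh7 peak of some factor within 1 kb of a start, against 1 of 6 blood markers (LYZ) and 4 of 5 neuronal markers. A peak at a start does not say that the gene is expressed.

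The 2 sets were unlike each other. Of the INO80-free MCRS1 peaks, 52.8% (49.4 to 56.1), overlapped a YY1 peak, against 85.7% (82.7 to 88.2) of the INO80-free RUVBL2 peaks, a difference of 32.9 points (28.5 to 37.1). That contrast is at the deposited widths. With all peaks recut to their central 200 bp and the rule applied anew, other and larger sets of 2747 and 1825 peaks resulted. Their YY1 shares were 28.3% and 35.4%. Few were shared: 48 peaks of each list belonged to both sets. The RUVBL2 set lay more often toward the ends of genes and of chromosomes, and its members came in runs over single genes such as FASN, PTBP1 and SLC16A3. Of the 31 MCRS1 members wider than 500 bp, 7 (22.6%) held more than 10% repeated 12-base words, among them the 3 widest.

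Sequences of 6 peaks follow as examples of single members, not as a measure of the contrasts between the sets. All are of the hg19 plus strand and 240 bases long. The first pair comes from the 2 widest INO80-free MCRS1 peaks. The peak between genes near DDX51 (chr12:132618843-132620967, 2125 bp) had no YY1 peak, and 78.5% of its 12-base words repeated an earlier word of the same peak. In the window chr12:132619785-132620024 capitals mark 7 copies of its most frequent 12-base word, with a median spacing of 36 bases. The peak in an intron of GALNT9 (chr12:132879738-132882351, 2614 bp) had a YY1 peak and 77.8% repeated words. In its window chr12:132880925-132881164 capitals mark 6 copies of the most frequent word.
near DDX51: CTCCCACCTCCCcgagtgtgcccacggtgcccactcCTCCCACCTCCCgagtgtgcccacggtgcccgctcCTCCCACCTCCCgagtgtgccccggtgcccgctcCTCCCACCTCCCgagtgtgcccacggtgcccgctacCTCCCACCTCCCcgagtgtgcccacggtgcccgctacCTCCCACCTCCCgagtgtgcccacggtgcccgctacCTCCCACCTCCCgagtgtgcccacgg
in GALNT9: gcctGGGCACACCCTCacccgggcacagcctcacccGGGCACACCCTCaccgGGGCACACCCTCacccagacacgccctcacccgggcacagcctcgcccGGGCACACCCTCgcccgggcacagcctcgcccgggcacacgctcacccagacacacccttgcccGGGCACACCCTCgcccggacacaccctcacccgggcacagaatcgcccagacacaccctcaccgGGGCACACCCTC

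Next come the windows with the closest match to the YY1 motif among the 10 widest members with YY1, since exact matches were rare in both sets. For MCRS1 it lay at the start of CTDP1, a phosphatase of the RNA polymerase II tail (chr18:77439408-77439647), and for RUVBL2 within the overlapping genes of SLC16A3, a lactate exporter, and CSNK1D, a protein kinase (chr17:80206526-80206765). Capitals mark the matched bases, each with 1 mismatch to AANATGGCG, on the minus strand at CTDP1 and the plus strand at SLC16A3.
CTDP1: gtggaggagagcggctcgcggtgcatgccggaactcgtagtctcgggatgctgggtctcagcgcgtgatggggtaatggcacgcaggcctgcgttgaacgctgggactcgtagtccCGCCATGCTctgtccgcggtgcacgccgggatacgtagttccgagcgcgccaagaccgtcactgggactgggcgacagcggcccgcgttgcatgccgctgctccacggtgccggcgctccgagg
in SLC16A3: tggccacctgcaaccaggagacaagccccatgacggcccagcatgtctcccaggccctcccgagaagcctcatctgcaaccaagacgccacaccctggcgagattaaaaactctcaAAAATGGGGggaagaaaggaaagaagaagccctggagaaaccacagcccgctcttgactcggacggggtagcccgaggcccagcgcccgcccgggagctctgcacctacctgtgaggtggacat

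The last pair shows an INO80-free RUVBL2 peak without YY1 and one that both sets held, with CpG dinucleotides in capitals. The peak in an intron of PIEZO1, a mechanosensitive ion channel, spans chr16:88788696-88789059, and its window chr16:88788758-88788997 holds 10 CpG. The peak over IMPDH2, an enzyme of guanine nucleotide synthesis, spans chr3:49061562-49063831, and its window chr3:49062577-49062816 holds 6 CpG.
in PIEZO1: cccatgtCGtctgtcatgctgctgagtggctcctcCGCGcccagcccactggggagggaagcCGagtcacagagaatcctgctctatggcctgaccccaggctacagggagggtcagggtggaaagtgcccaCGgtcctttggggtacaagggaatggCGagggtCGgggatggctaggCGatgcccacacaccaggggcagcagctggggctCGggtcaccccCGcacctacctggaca
in IMPDH2: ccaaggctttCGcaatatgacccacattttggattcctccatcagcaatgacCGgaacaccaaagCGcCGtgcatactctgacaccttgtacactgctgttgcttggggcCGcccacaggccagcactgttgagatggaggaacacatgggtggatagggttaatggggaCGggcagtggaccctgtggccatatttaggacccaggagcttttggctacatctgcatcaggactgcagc

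INO80-free peaks were narrow. The median width was 185 bp for MCRS1 (quartiles 157 and 243) against 302 bp for the peaks of that list with INO80, and 193.5 bp for RUVBL2 (quartiles 160.2 and 278) against 283.5 bp. The narrowest peak of every list was 147 bp. A wider peak has more room to touch INO80, so the rule itself favours narrow members and these widths are a description. The shares of YY1, the other factor and coding starts are also given below within classes of width. GC content in the central 200 bp had a median of 59.5% in the MCRS1 set and 67% in the RUVBL2 set, against 62% and 67% with INO80. The ratio of observed to expected CpG was lower in both sets, with medians of 0.571 and 0.568 against 0.744 and 0.795 with INO80 and 0.777 at coding starts.

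Many members lay close to INO80 even so. The gap to the nearest Huh7 INO80 peak had a median of 9439 bp in the MCRS1 set and 2912 bp in the RUVBL2 set. In the MCRS1 set 154 members lay within 200 bp of INO80, 156 from there to 1 kb, 135 from 1 to 10 kb, 334 from 10 to 100 kb and 91 beyond 100 kb. In the RUVBL2 set the counts were 105, 139, 214, 159 and 25. The members nearest to INO80 for MCRS1 were at RPLP0, which encodes a ribosomal stalk protein (gap 1 bp), at the shared start of MTTP and TRMT10A (4 bp) and in the gene ENSG00000234396 (7 bp). For RUVBL2 they were in ENSG00000258344 (touching, with no shared base), in an exon of LRFN1 (1 bp) and at POLR2H, an RNA polymerase subunit gene (2 bp). Just outside the rule were MCRS1 peaks at QRICH1, CEP295 and TMEM140, which shared 1, 2 and 5 bases with INO80, and RUVBL2 peaks at CFL1 and MUS81 (1 base), UQCR11 (2) and ATP5MC1 (9). The MCRS1 curve of gaps is steep below 1 kb and again above 10 kb, whereas the RUVBL2 curve climbs through 1 to 10 kb.

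**Figure D1:**
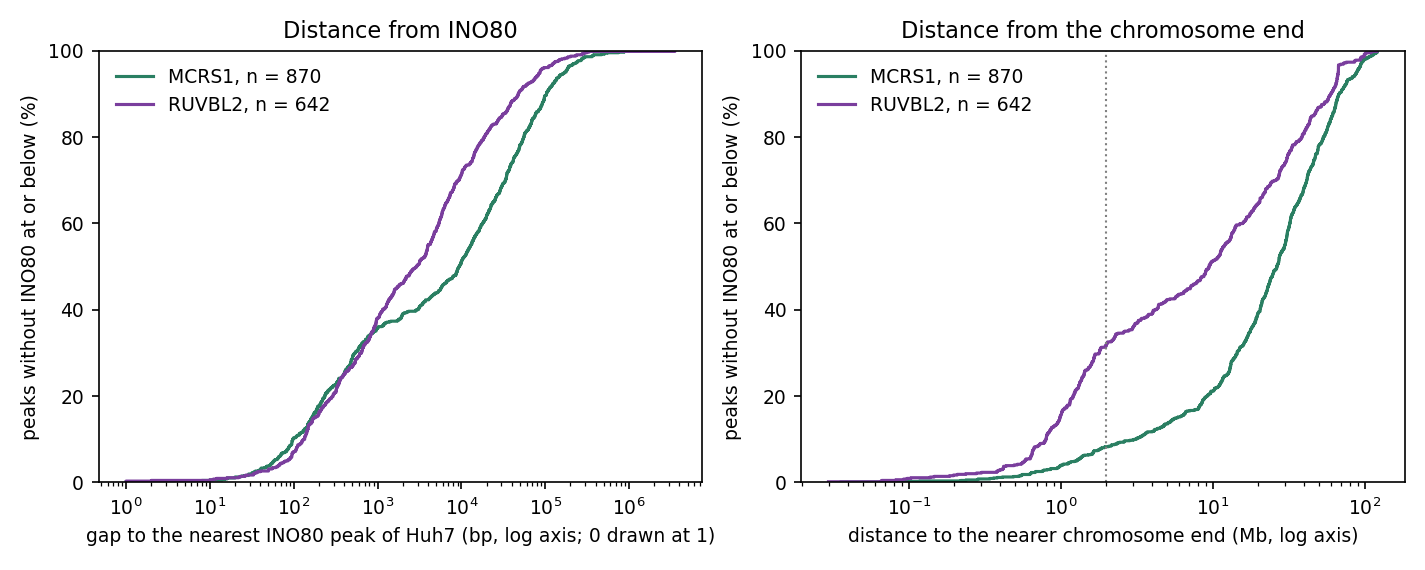
Cumulative share of INO80-free peaks (vertical axis, percent) against the gap to the nearest Huh7 INO80 peak (left, bp, log axis) and the distance to the nearer chromosome end (right, Mb, log axis), for 870 MCRS1 peaks (green) and 642 RUVBL2 peaks (purple). The RUVBL2 line lies above the MCRS1 line from 1 kb to 100 kb on the left, and at the dotted 2 Mb mark on the right it has reached 31.9% against 8.28%.

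YY1 was less frequent at INO80-free peaks of both lists. In the MCRS1 list 52.8% of INO80-free peaks had YY1 against 89.1% of those with INO80, a difference of -36.4 points (-39.8 to -33.0). In the RUVBL2 list the shares were 85.7% and 97.2%, a difference of -11.6 points (-14.5 to -8.98). The gap remained within classes of width for MCRS1: at most 160 bp wide, 47.4% of INO80-free peaks and 80.4% of the others had YY1, and above 500 bp 61.3% (19 of 31) and 97.3%. For RUVBL2 the shares were 78.9% and 92.4% at most 160 bp wide, while above 500 bp all 77 INO80-free peaks and 99.8% of the others had YY1. Huh7 YY1 peaks cover 0.418% of the genome.

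The YY1 peaks under the RUVBL2 list were wide, with INO80 or without. Their median width was 1090.5 bp under the RUVBL2 set and 1134.5 bp under RUVBL2 peaks with INO80. It was 601 bp under the MCRS1 set and 832 bp under MCRS1 peaks with INO80. The whole YY1 list had 391 bp, but a wider YY1 peak has more room to be overlapped, so that is no like comparison. The 550 RUVBL2 members with YY1 stood on 494 YY1 peaks, of which 39 held several members, 97 in all. Of the 2606 RUVBL2 peaks with both INO80 and YY1, 340 shared a YY1 peak with another. One YY1 peak of 15289 bp (chr17:80033446-80048734) held 8 members in and near FASN, and one of 14512 bp (chr19:795035-809546) held 7 in PTBP1. These members are thus not separate observations of YY1. In the MCRS1 set 459 members with YY1 stood on 455 YY1 peaks.

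The other INO80-linked factor was mostly missing too. RUVBL2 had a peak at 7.13% of INO80-free MCRS1 peaks (62 of 870) against 35.1% with INO80. MCRS1 had one at 8.88% of INO80-free RUVBL2 peaks (57 of 642) against 66.8%. The difference varied with width. In the MCRS1 list the shares were 6.83% and 14.7% at most 160 bp wide, and 12.9% (4 of 31) and 62.2% above 500 bp. In the RUVBL2 list they were 11.2% and 55.6% at most 160 bp wide, and 6.49% and 79.5% above 500 bp. Neither YY1 nor RUVBL2 was called at 407 MCRS1 members, and neither YY1 nor MCRS1 at 85 RUVBL2 members. YY1 alone accompanied 401 MCRS1 and 500 RUVBL2 members, both factors 58 and 50, and the other INO80-linked factor without YY1 only 4 and 7.

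**Figure D2:**
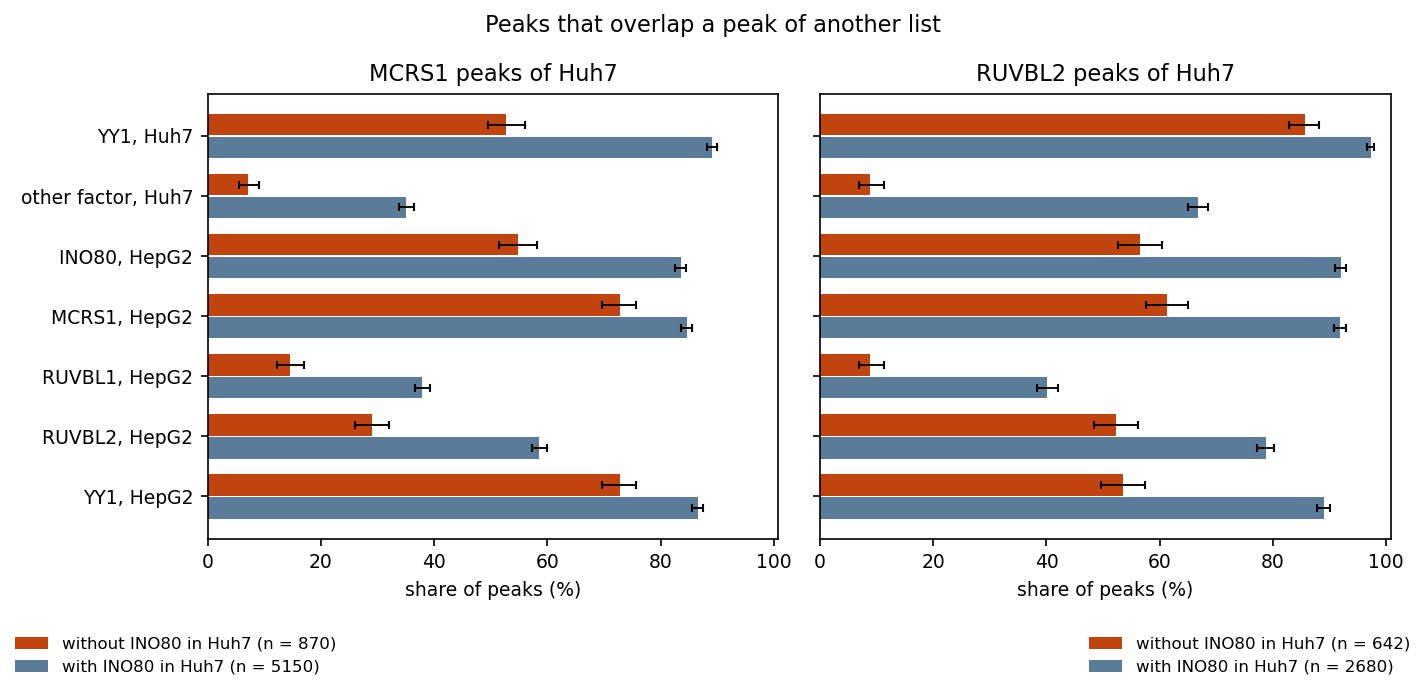
Share of peaks (percent, with 95% Wilson intervals) that overlap a peak of another list, for MCRS1 (left) and RUVBL2 (right), without INO80 in Huh7 (orange) and with it (blue). Each orange bar is shorter than the blue one beside it, and the shortest orange bars are those of the other factor in Huh7 (7.13% and 8.88%) and of RUVBL1 (14.5% and 8.88%).

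A large share of members carried INO80 in the other liver line, at the peak widths deposited. HepG2 INO80 overlapped 54.8% of the MCRS1 set and 56.5% of the RUVBL2 set, against 83.6% and 92.0% of the peaks with INO80 in Huh7, differences of -28.7 and -35.5 points. With all peaks recut to their central 200 bp and the rule applied anew, the shares were 22.4% of 2747 and 25.6% of 1825 peaks. With the wider 50% of each list, also sorted anew, they were 42.6% of 554 and 48.3% of 371. At the deposited widths the sets differed from each other by 1.71 points (-3.35 to 6.75) in this share. HepG2 has a longer INO80 list, with 23665 peaks. The same factor was called in HepG2 at 72.8% of MCRS1 members (23425 MCRS1 peaks there) and 52.3% of RUVBL2 members (12936 RUVBL2 peaks). It was called there without INO80 at 21.03% (183) of MCRS1 members, against 3.81% of MCRS1 peaks with INO80 in Huh7, a difference of 17.2 points (14.6 to 20.1). For RUVBL2 these shares were 9.03% (58) and 1.045%, a difference of 7.99 points (5.96 to 10.5). These members overlapped a HepG2 peak of the factor and no INO80 peak of either line. Whether that HepG2 peak met INO80 outside the member was not tested.

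YY1 followed another order in HepG2 than in Huh7. There it overlapped 72.8% of the MCRS1 set and 53.6% of the RUVBL2 set, a difference of -19.2 points (-24.0 to -14.3), where in Huh7 the RUVBL2 set had the larger share. Of the MCRS1 members, 262 had YY1 in HepG2 alone and 88 in Huh7 alone. Of the RUVBL2 members, 34 had YY1 in HepG2 alone and 240 in Huh7 alone. The YY1 libraries of the 2 lines come from different laboratories, so line and source cannot be told apart. The YY1 lists also differ in length, with 39293 peaks in HepG2 and 21554 in Huh7. No factor had a HepG2 peak at 133 MCRS1 and 165 RUVBL2 members, and 95 and 33 members overlapped no other list in either line.

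At the deposited widths members stood less often at promoters. A start of a protein-coding transcript lay within 1 kb of 50.7% of INO80-free MCRS1 peaks against 68.5% with INO80 (difference -17.8 points), and of 44.5% of INO80-free RUVBL2 peaks against 74.3% (-29.7 points). Among peaks of at most 160 bp the shares were 45.0% and 60.9% for MCRS1, and 48.45% and 71.9% for RUVBL2. Above 500 bp they were 41.9% (13 of 31) and 74.2% for MCRS1, and 23.4% and 74.6% for RUVBL2. With all peaks recut to 200 bp and the rule applied anew, the differences were -0.45 points for MCRS1 and -13.9 points for RUVBL2. With the wider 50% of each list, also sorted anew, they were -7.6 and -24.4 points. The remaining MCRS1 members lay between genes (17.4%), in introns of coding genes (13.4%), at other annotated starts (11.8%), within other genes (5.29%) and in coding-gene exons (1.38%). Other annotated starts are those of any further transcript, also of the same coding gene. That class was assigned before exons and introns, so it takes peaks from both. For RUVBL2, other annotated starts (22.7%), introns (11.5%), exons (9.81%) and stretches between genes (9.502%) followed. Exons held 63 RUVBL2 members, 43 of them in UTR and 20 in coding sequence, a share of 9.81% against 1.68% with INO80.

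Members of both sets, and of the RUVBL2 set more, leaned toward the 3′ part of genes compared with peaks that had INO80. Of 257 INO80-free RUVBL2 peaks inside a coding gene and away from coding starts, 126 (49.0%) had their centre in the last 25% of the gene's length and 36 (14.01%) in the first 25%. With INO80 the shares were 32.8% and 28.7% of 296 peaks. A coding gene's end lay within 1 kb, with no coding start there, at 19% of the RUVBL2 set against 4.74% with INO80, a difference of 14.3 points. The MCRS1 set differed from its list in the same direction by less: 27.8% of 176 such peaks lay in the last 25% and 31.3% in the first 25%, against 19.1% and 36.4% of 591 with INO80. At gene ends lay 2.76% of the MCRS1 set against 1.73% with INO80, a difference of 1.03 points (0.05 to 2.38). Gene ends were looked at after the values had been seen.

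Chromosome ends and chromosome 19 held many of the RUVBL2 members. Within 2 Mb of a chromosome end lay 31.9% of the RUVBL2 set against 11.9% of RUVBL2 peaks with INO80, a difference of 19.99 points (16.3 to 23.9). The interval counts each peak as independent, though the runs of 11 and 10 members described below lie in such ends. Such ends make up 3.10% of the genome length and hold 6.53% of coding genes, 9.54% of Huh7 YY1 peaks and 6.79% of Huh7 INO80 peaks. The whole RUVBL2 lists had 15.8% there in Huh7 and 13.5% in HepG2. For MCRS1 the shares were 8.28% and 6%. Chromosome 19 held 123 RUVBL2 members (19.2%, against 11.6% with INO80) and 71 MCRS1 members (8.16% against 6.97%). It was not alone in this. Of its RUVBL2 peaks 28.3% were INO80-free, with 19.3% over the whole list. Chromosome 22 had 32.0% and chromosome 16 had 27%, while others lay lower, such as chromosome 10 (7.14%).

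**Figure D3:**
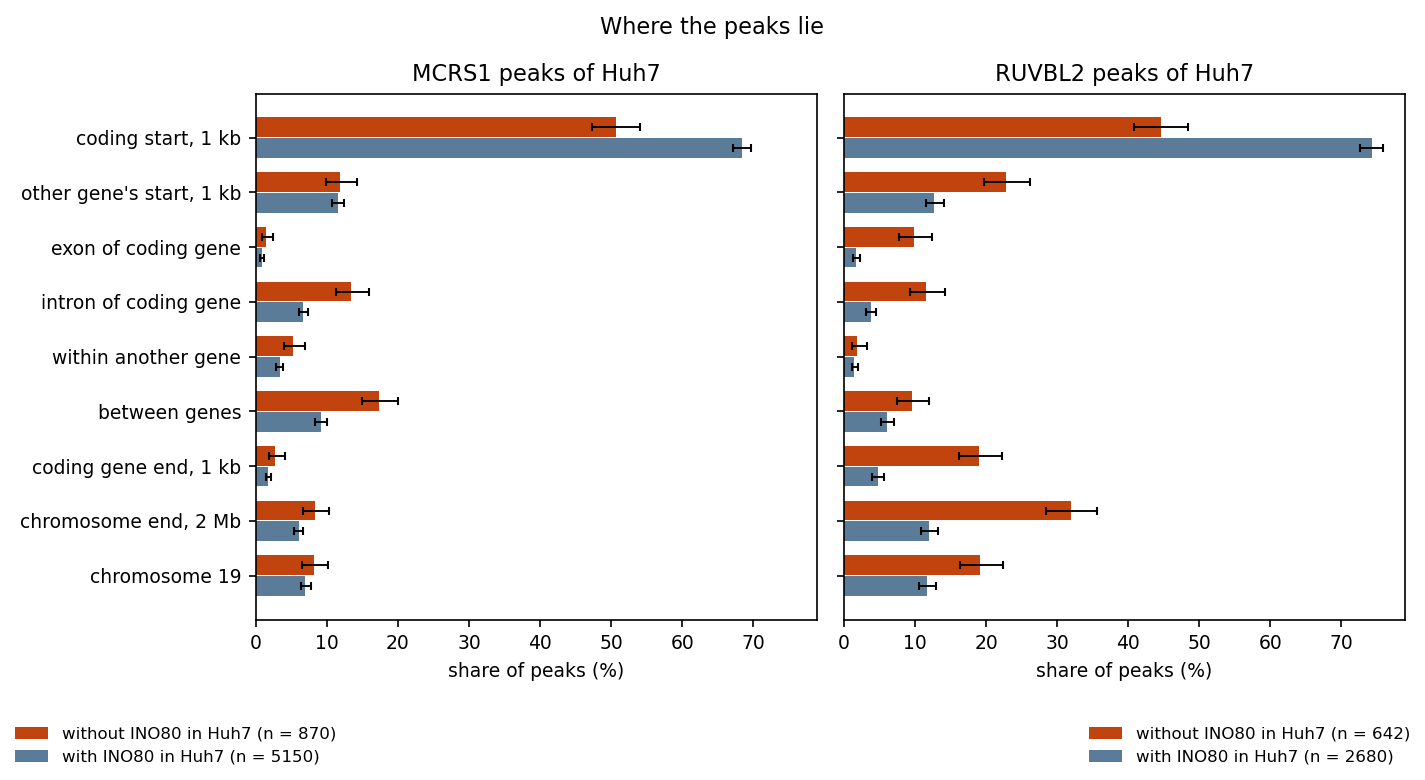
Share of peaks (percent, with 95% Wilson intervals) by place for MCRS1 (left) and RUVBL2 (right), without INO80 in Huh7 (orange) and with it (blue). The upper 6 places exclude each other and the lower 3 are separate measures. The place drawn as another gene's start holds any further annotated transcript start, also of the same coding gene. In the RUVBL2 panel the orange bars exceed the blue ones at exons (9.81% against 1.68%), gene ends (19% against 4.74%) and chromosome ends (31.9% against 11.9%).

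Runs of neighbouring members were more frequent in the RUVBL2 set than in the MCRS1 set. Runs were not counted for peaks with INO80, so whether they are particular to INO80-free peaks was not tested. With members less than 50 kb apart joined, 295 of 642 RUVBL2 members (45.9%) lay in 99 runs, against 140 of 870 MCRS1 members (16.1%) in 66. The longest run held 11 RUVBL2 members at chr17:79995408-80050524, 8 of them inside FASN, the fatty acid synthase gene. All 11 overlapped YY1 and 4 overlapped HepG2 INO80. A run of 10 at chr19:788766-813558 held 7 members in PTBP1, which encodes a splicing repressor. One of 9 at chr19:947987-1108148 held 4 in ARID3A and others in WDR18, ABCA7 and SBNO2. Runs of 8 lay at chr17:79818059-79889925 (P4HB to MAFG) and over SLC16A3 and CSNK1D (chr17:80186985-80226233).

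INO80 was present at the same genes. FASN, PTBP1, SLC16A3, CSNK1D, ARID3A, CORO1B, FGFR4 and SQSTM1 each had an INO80 peak and a RUVBL2 peak within 1 kb of a start, and further RUVBL2 peaks without INO80 in the gene. FASN held 10 RUVBL2 peaks in 19.96 kb, 8 of them INO80-free, beside 2 INO80 peaks. PTBP1 held 9 RUVBL2 peaks in 15.25 kb, 7 of them INO80-free, beside 3 INO80 peaks. SLC16A3 and CSNK1D overlap, so they count some of the same peaks. Of the 19 genes with 3 or more RUVBL2 members, SBF1 alone had no INO80 peak at a start. For MCRS1 only GSE1 (5 members in 506.7 kb) and CROCC (4 members in 232.7 kb) reached 3. These genes were chosen for their number of members after the values had been seen.

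The 5S ribosomal RNA array on chromosome 1 was a site of both sets. The longest MCRS1 run, 4 members at chr1:228750435-228782014, lay in RNA5S genes, and a single YY1 peak of 38438 bp (chr1:228744053-228782490) covered these and 6 RUVBL2 members, with 4 INO80 peaks also on it. The 5S genes are near-identical copies, so reads could be assigned among them in more than 1 way and the placement of single peaks is uncertain.

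Wide members of the 2 sets differed in sequence. Besides the peaks near DDX51 and in GALNT9, the widest INO80-free MCRS1 peaks lay in an intron of FAM53A (chr4:1629401-1630959, 1559 bp, 29.5% repeated words), at the ubiquitin ligase gene WWP2 (chr16:69795576-69796773, 1198 bp, 0.337%), in FAM20C (chr7:282837-283791, 955 bp, 78.8%), in LINC02176 (844 bp, 36.9%), in LHPP (835 bp, 73.4%), at CTDP1 (807 bp, 0%), near C1QTNF8 (775 bp, 27.6%) and in an intron of AFP (chr4:74298212-74298917, 706 bp, 0%). AFP encodes alpha-fetoprotein, a marker of fetal liver and hepatoma. The AFP peak was 26296 bp from INO80 in Huh7 and lay on a HepG2 INO80 peak. Of these 10 peaks, GALNT9, FAM20C and CTDP1 had YY1. More than 10% of the 12-base words repeated in 36 MCRS1 members, 4.14% against 1.11% of MCRS1 peaks with INO80. Of the 36, 22 had MCRS1 in HepG2, 15 of these without INO80 there, and 2 lay at a coding start. Repeat content was looked at after the values had been seen, and reads from such repeats can be hard to place.

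The widest INO80-free RUVBL2 peaks held little repeated sequence. Among the 10 widest were those over SLC16A3 and CSNK1D (chr17:80202657-80207561, 4905 bp), NPB (2336 bp), IMPDH2 (2270 bp), CDK10 and SPATA2L (1895 bp), PTBP1 (1461 bp), near HCN2 (1416 bp), FASN (1392 bp), GMPPB and RNF123 (1374 bp) and CCDC183 (1318 bp). All 10 had YY1, and the highest share of repeated words was 4.84% (near HCN2). More than 10% repeated words occurred in 26 RUVBL2 members (4.05% against 2.02%), and 23 of the 26 lay within 2 Mb of a chromosome end. Above 500 bp the RUVBL2 set had HepG2 INO80 at 41.6% of 77 peaks, against 61.5% of the peaks of at most 160 bp. The widest RUVBL2 members without YY1 were in PIEZO1 (364 bp), near QTRT1 (312 bp), at PPP1R37 (290 bp), near SARDH (290 bp) and at RPA2 (286 bp).

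**Figure D4:**
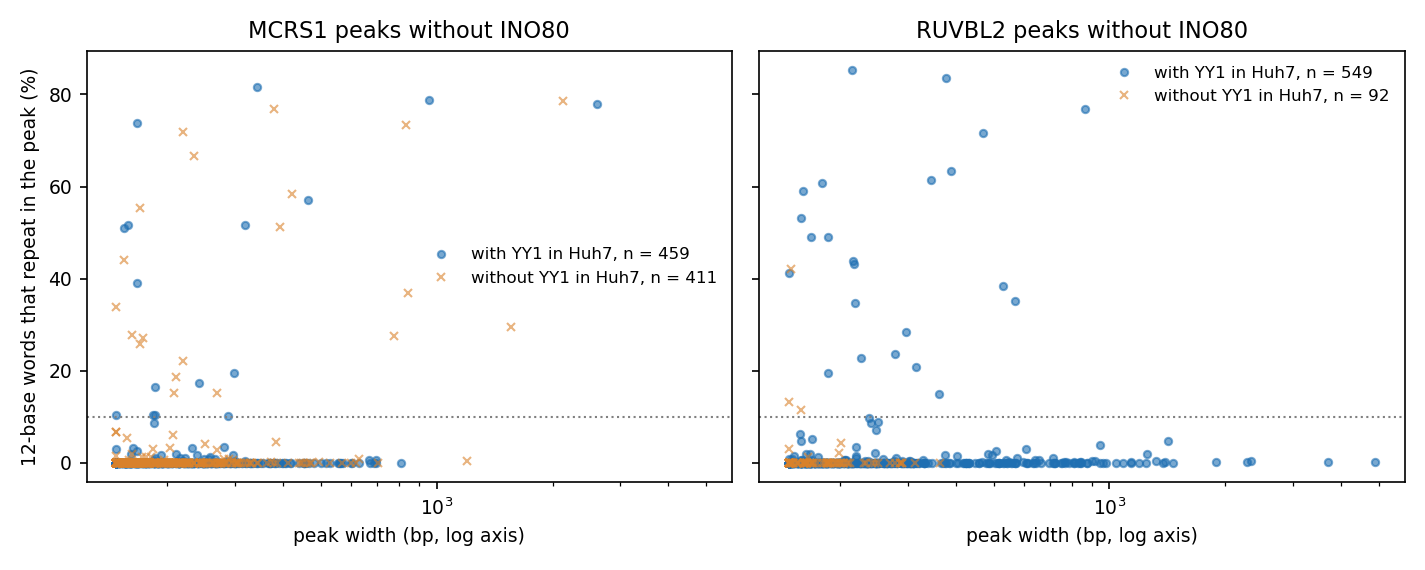
Share of 12-base words that repeat an earlier word of the same peak (vertical axis, percent) against peak width (bp, log axis) for INO80-free MCRS1 peaks (left) and RUVBL2 peaks (right), with YY1 in Huh7 (blue circles) and without (orange crosses). The dotted line is at 10%. The 2 widest MCRS1 peaks are at 77.8% and 78.5%, and the 10 widest RUVBL2 peaks are all below 5%. One RUVBL2 peak on the masked part of chromosome Y has no sequence and is not drawn.

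The YY1 motif was rare at the members, whether or not YY1 was called there. The motif AANATGGCG, on either strand, occurred in the central 200 bp of 4 INO80-free MCRS1 peaks (0.460%) against 5.15% with INO80, and of 0 of 642 INO80-free RUVBL2 peaks, which by a limit of 3 counts allows a share of up to 0.467% (Wilson upper bound 0.595%), against 3.47%. It occurred in 4.07% of windows at coding starts and 4.12% of Huh7 YY1 peaks. Among peaks that overlapped YY1, the shares were 4 of 459 and 5.71% for MCRS1, and 0 of 550 (Wilson upper bound 0.694%) and 3.57% for RUVBL2. Among peaks of at most 300 bp they were 0.523% and 3.94% for MCRS1, and 0 of 504 (Wilson upper bound 0.756%) and 2.87% for RUVBL2. Over the whole peak, 5 MCRS1 members held it, at STAT2, BCAS4 and LSG1 and in ENSG00000288983 and ENSG00000291208, and 1 RUVBL2 member, at GFER. These 6 were named after their values were seen. The shorter core ATGGCG, which lies inside the motif and was added after the values were seen, occurred in 5.98% of MCRS1 members against 14.3%, and in 6.39% of RUVBL2 members against 12.8%.

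Other motifs differed less. The FOXA motif TGTTTAC, of the forkhead factors of liver, occurred in 4.25% of INO80-free MCRS1 peaks against 2.49% with INO80, and in 1.09% against 1.23% for RUVBL2; coding starts held it in 1.501% and YY1 peaks in 3.87%. The motifs of the other liver factors searched were rarer. The HNF4A motif CAAAGTCCA occurred in 0 of 870 MCRS1 members (Wilson upper bound 0.44%) against 0.466% with INO80, and in 0.156% of RUVBL2 members against 0.448%. The HNF1 motif GTTAATNAT occurred in 0 of 870 (upper bound 0.44%) against 0.117% and in 0.156% against 0.112%. The CEBP motif TTGCGCAA occurred in 0.115% against 0.117% and in 0 of 642 (upper bound 0.595%) against 0.149%. The ETS motif ACTTCCGG occurred in 2.99% against 4.08% for MCRS1 and in 1.56% against 4.14% for RUVBL2, with 4.66% at coding starts. For the NFY motif CCAATC the shares were 5.63% against 5.75%, and 3.27% against 5.56%. The SP and KLF motif GGGGCGGGG occurred in 5.17% against 5.71%, and in 7.48% against 8.66%. Difference intervals excluded 0 for FOXA in the MCRS1 list (0.53 to 3.37 points). In the RUVBL2 list they did so for ETS (-3.67 to -1.125) and NFY (-3.75 to -0.43). For HNF4A in the MCRS1 list the interval barely did (-0.69 to -0.00066). The other difference intervals of the motifs in this paragraph included 0. A match describes the letters in the window only.

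At the level of genes, many coding genes with a member within 1 kb of a start also had INO80 at a start. That INO80 peak need not be near the member. Of 19825 coding genes, 519 (2.62%) had an INO80-free MCRS1 peak within 1 kb of a start, and 318 (1.6%) an INO80-free RUVBL2 peak. INO80 had a peak of its own within 1 kb of a start of 49.3% of the 519 and 55.3% of the 318. That left 263 genes (1.33% of all) for MCRS1 and 142 (0.716%) for RUVBL2. YY1 had a peak at 84.0% and 96.5% of the genes with a member, and neither INO80 nor YY1 had one at 59 and 10 genes. The shares of all coding genes with an INO80 or a YY1 peak are not given here. Whether the shares among genes with a member are high or low was therefore not tested. Both sets marked 42 genes, 8.09% of the MCRS1 genes and 13.2% of the RUVBL2 genes, 25 of them without INO80.

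Genes of the complexes themselves carried few members, as did coding genes in general (2.62% and 1.6%). None of the 16 INO80 complex genes or the 23 TIP60 and SRCAP genes had a member of either set. INO80 had peaks at 12 and 19 of them, MCRS1 at 8 and 11, and RUVBL2 at 4 and 10. A peak that overlaps INO80 cannot be a member, and with lists this short the lack of members says little. Of 9 NSL complex genes only KAT8, the acetyltransferase, had one (RUVBL2, 22804 bp from INO80), and of 33 R2TP and client genes only the kinase gene SMG1 (RUVBL2, 93 bp). All 77 cytosolic ribosomal protein genes had INO80, and members lay at RPLP0, RPS21 and RPS6 for MCRS1 (3.90% of the list, with 2.62% over all genes) and at 4 genes, RPL10, RPL31 and RPS14 among them, for RUVBL2 (5.19%, with 1.6%). Histone (47), proteasome (31), HOX (39), neuronal (30) and blood cell (30) genes had no member of either set.

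Counts in the remaining lists were small, and are to be read beside the shares over all coding genes, 2.62% for MCRS1 and 1.6% for RUVBL2. In the respiratory chain MCRS1 members lay at 5 of 74 genes (ATP5F1A, COX6A1, NDUFA11, NDUFA3 and NDUFB6; 6.76%, interval 2.92 to 14.9) and RUVBL2 members at ATP5ME and NDUFA11 (2.7%). NDUFA11, a complex I subunit gene, was 73796 bp from INO80 at its MCRS1 peak (chr19:5903448-5904049). Among 43 DNA replication genes, 4 had an MCRS1 member (GINS4, ORC1, RPA2 and RPA3; 9.30%, interval 3.68 to 21.6) and 3 a RUVBL2 member (POLD1, RPA2 and RPA3; 6.98%). RPA2 and RPA3 encode subunits of the single-strand DNA binding protein, and the members there were 87 and 222 bp from INO80 for MCRS1. Of 31 immediate-early genes, MCRS1 members lay at FOSB and JUNB and RUVBL2 members at FOSB and IER3 (6.45% each). At FOSB they were 29094 and 29114 bp from INO80 and had no YY1. Among 55 hepatocyte genes the only members were at the nuclear receptor gene HNF4A (MCRS1, 6435 bp from INO80, no YY1) and at FOXA3 (RUVBL2, 126 bp, with YY1), 1.82% each. Of 51 splicing factor genes, HNRNPF had an MCRS1 member and PRPF6 a RUVBL2 member, 1.96% each.

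Peaks held by both sets were named by width. For RUVBL2 the widest included IMPDH2 (2270 bp, no HepG2 peak of any factor), SREBF1 (837 bp), UNKL (530 bp) and HOOK2 (457 bp). SREBF1 encodes a regulator of lipid synthesis. For MCRS1 the widest were CTDP1 (807 bp), the shared start of NDUFA11 and VMAC (602 bp), ZNF367 (566 bp), CWF19L1 (555 bp) and SREBF1 (418 bp). All of these named peaks but the IMPDH2 and UNKL peaks lay on a HepG2 INO80 peak.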

How the data were processed

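Peaks of 9 lists were used as the authors deposited them: filtered start and end positions on hg19, without score, p-value or enrichment. Per the submitters' processing notes the tools were Bowtie2, SAMtools, MACS2, bedtools and deepTools; the sources used here do not say whether libraries were pooled before calling. Libraries were grouped by title. A peak was INO80-free when it shared no base with a Huh7 INO80 peak; other overlaps needed 1 bp. Gene starts and ends came from GENCODE release 44 lifted to GRCh37, whose chromosome lengths equal hg19, with basic protein-coding transcripts for coding starts. Other starts were those of any annotated transcript. Of 593 entries in 15 gene lists, 589 matched. Sequence came from GRCh37. Named peaks were the widest of each set, the widest without YY1, those in both sets, those nearest the INO80 limit and listed genes; width stood in for enrichment, the ranking planned, because no list gives it. Members, lists, motifs and measures were chosen with earlier results of these data known. The overlap functions were tested on simulated intervals. Python 3.11.15, pandas 2.3.3, scipy 1.17.1 and pysam 0.24.0 were used. Input, acetylation and fly spike-in data were not used here. Some named genes are not reported here.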

Additional observations from a re-analysis of the deposited data

How the results depend on the processing

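Of 72 alternative values of the set sizes and of the YY1, HepG2 INO80 and coding start shares, 35 moved by less than their counting interval (set sizes: less than 1.5 times). All 56 differences between peaks without and with INO80 kept their direction, though the MCRS1 coding start difference shrank to -0.45 points with peaks of 200 bp. Differences ranged from -39.3 to -30.3 (YY1), -33.0 to -22.6 (HepG2 INO80) and -25.4 to -0.45 points (coding starts) for MCRS1, and from -27.1 to -8.07, -44.8 to -25.3 and -38.1 to -11.2 for RUVBL2. With all peaks recut to the central 200 bp the sets grew to 2747 and 1825 peaks, with YY1 at 28.3% and 35.4%, HepG2 INO80 at 22.4% and 25.6% and coding starts at 64.9% and 61.0%; narrower peaks overlap less by construction. With the wider 50% of each list there were 554 and 371 members, with YY1 at 58.1% and 89.2%, HepG2 INO80 at 42.6% and 48.3% and coding starts at 64.6% and 52.6%. Members at least 1 kb from INO80 numbered 560 and 398, with HepG2 INO80 at 50.7% and 47.2% and coding starts at 43.0% and 36.2%. When INO80 had to cover 50% of a peak to exclude it, YY1 stood at 59.3% for MCRS1, HepG2 INO80 at 61.1% and 62.6% and coding starts at 54.8% and 49.2%. Asking for 50% of a member to be covered gave YY1 at 44.9% and 82.1% and HepG2 INO80 at 50.1% and 52.5%. Coding starts within 5 kb lay at 60.8% and 72.0% of members, and starts of all annotated transcripts within 1 kb at 62.5% and 67.3%. Added after the data were seen, peaks of at most 300 bp gave YY1 at 82.1% for RUVBL2, and leaving out 2 Mb at chromosome ends gave coding starts at 49.2% for RUVBL2. No paired analysis was possible because each factor has 1 list and no value per library, and leaving out a library could not be run for the same reason.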

Other observations

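MCRS1 members in gene bodies were most frequent in GSE1 (5 members, 4 with YY1 and 4 with MCRS1 in HepG2) and CROCC (4 members, 3 with YY1). INO80 had 8 peaks in each of these genes, and a peak at a start of GSE1 but not of CROCC. Part of the CROCC members also lay in ENSG00000228549.

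At CORO1B, which encodes an actin regulator, 4 INO80-free RUVBL2 peaks stood on a YY1 peak of 11136 bp (chr11:67200605-67211740), and none of the 4 overlapped INO80 or RUVBL2 in HepG2.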
